A study of Homo sapiens with 12 samples.

Results

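COMMD10, PKIA, GNA13, TXNDC5, GFPT2 and FSTL1 are 6 genes whose messenger RNA was low in UM-UC-3 cells given a control microRNA precursor and higher in every other transfection of the experiment. They were taken by name from the array table, which holds 7 probes for them among 46713, and all 6 genes are among the 13528 tested. UM-UC-3 is an established human bladder cancer cell line. The cells were transfected with a miR-101 precursor, an siRNA against EZH2, a control siRNA or a control microRNA precursor, each at 50 nM for 72 h, with 3 single-colour Illumina bead arrays per group and 12 in all. All groups share the line and the transfection, and no untransfected cells were analysed here. The labels describe triplicate transfections without naming separate cultures, so the p-values rest on variation from array to array that may be technical.

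The genes were chosen by their measured log2 difference between the controls and by the response to miR-101 against each control, so those values are given as a description with no test. By absolute size they ranked 2 and 4 to 8 among all genes in control siRNA against control precursor. The comparison of EZH2 siRNA with control siRNA uses no control precursor array and is the 1 comparison in which they were tested. Its 3 control siRNA arrays also entered the choice, so the test is not fully independent of it.

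The genes belong to different pathways. GNA13 encodes the alpha subunit of the heterotrimeric G protein G13, which passes receptor signals to the small GTPase RHOA through RhoGEF proteins. PKIA encodes a small peptide inhibitor that binds the free catalytic subunit of protein kinase A and is linked with its export from the nucleus. GFPT2 is an isoform of the rate-limiting enzyme of the hexosamine pathway, which makes the sugar donor for protein glycosylation and O-GlcNAc. TXNDC5 is a protein disulfide isomerase of the endoplasmic reticulum, FSTL1 is a secreted glycoprotein of the SPARC family with a follistatin-like domain, and COMMD10 is a subunit of the Commander complex, which recycles membrane proteins from endosomes. A microRNA precursor is processed to a mature strand that pairs with messenger RNAs mainly through its seed, whereas an siRNA is designed to pair along its whole length with 1 target.

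The mature strand of miR-101 is shown because it is the active part of the tested precursor. Capitals mark the seed, bases 2 to 8 of 21 bases. The sequence is from RefSeq, GRCh38.p14, chr9:4850345-4850365 on the plus strand.
hsa-miR-101-3p: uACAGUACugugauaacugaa

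Promoter windows of 300 bases were used for 5 of the 6 genes, with PKIA left out. They lie around the annotated gene start in RefSeq (GRCh38.p14), most of each upstream of it, and 3 are shown. COMMD10 is the gene with the widest gap below the other groups. GNA13 and TXNDC5 are the pair of the 6 genes with the highest correlation over the arrays. The COMMD10 window lies at chr5:116084775-116085074 on the plus strand, the GNA13 window at chr17:65056691-65056990 and the TXNDC5 window at chr6:7910739-7911038, both on the minus strand. Capitals mark matches, on either strand, to any of 6 motifs: the GC box GGGCGG, the CCAAT box CCAAT, the TATA box TATAAA, the cyclic AMP response element TGACGTCA, the E-box CACGTG and the AP-1 element TGAGTCA. Neighbouring matches can overlap.
COMMD10: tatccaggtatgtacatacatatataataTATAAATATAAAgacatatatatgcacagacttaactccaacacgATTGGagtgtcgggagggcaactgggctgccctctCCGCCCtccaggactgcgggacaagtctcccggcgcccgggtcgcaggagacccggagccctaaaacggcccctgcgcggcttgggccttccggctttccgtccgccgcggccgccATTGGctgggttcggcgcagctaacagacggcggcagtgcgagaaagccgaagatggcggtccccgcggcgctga
GNA13: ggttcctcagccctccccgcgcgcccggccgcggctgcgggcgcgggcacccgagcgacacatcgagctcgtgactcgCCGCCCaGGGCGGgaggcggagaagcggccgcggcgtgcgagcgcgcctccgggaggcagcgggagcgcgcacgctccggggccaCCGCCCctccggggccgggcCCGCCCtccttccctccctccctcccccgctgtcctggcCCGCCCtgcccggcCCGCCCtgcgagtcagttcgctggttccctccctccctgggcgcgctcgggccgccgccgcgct
TXNDC5: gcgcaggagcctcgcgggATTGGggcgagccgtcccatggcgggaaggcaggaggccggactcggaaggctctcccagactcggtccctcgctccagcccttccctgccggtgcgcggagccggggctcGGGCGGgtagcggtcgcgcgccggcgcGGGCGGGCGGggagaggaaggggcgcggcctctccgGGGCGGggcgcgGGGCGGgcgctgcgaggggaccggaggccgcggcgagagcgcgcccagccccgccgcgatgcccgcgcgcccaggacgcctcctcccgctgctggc

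The windows differ in composition. GC content was 60.0% for COMMD10, 81.3% for GNA13, 81.0% for TXNDC5, 77.0% for GFPT2 and 73.7% for FSTL1. The GC box matched 6 times in GNA13, 5 times each in TXNDC5 and GFPT2 and 1 time each in COMMD10 and FSTL1, and 45.0% of all 35116 promoter windows hold it. The CCAAT box matched 2 times in COMMD10 and 1 time each in TXNDC5 and GFPT2 (34.6% of all windows), and the TATA box 2 times in COMMD10 alone of these 5 (11.5%). The cyclic AMP element, the E-box and the AP-1 element had 0 matches in the 5 windows and are held by 1.85%, 7.26% and 4.95% of all windows. A match describes the letters and does not show binding.

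The control precursor arrays lay below all other 9 arrays for 6 of the 6 genes, as they did for 9.42% of all genes tested, while they lay above the other 9 for 7.4% of all genes. Against the control siRNA and miR-101 arrays this follows largely from how the genes were chosen. The EZH2 siRNA arrays are set against the same control precursor arrays, so that part is not independent of the choice either. The 6 of 6 is a description. Values are normalized log2 intensities, on which a step of 1 is a 2-fold change. Because each probe has its own brightness, levels are compared between arrays and not between genes. Raw signal was detected on all 12 arrays for each gene (detection p-value under 0.05). TXNDC5 has a second probe, ILMN_25085, that was detected on 0 of 12 arrays, with log2 values of 6.74 to 6.80, and it was not used further.

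**Figure D1:**
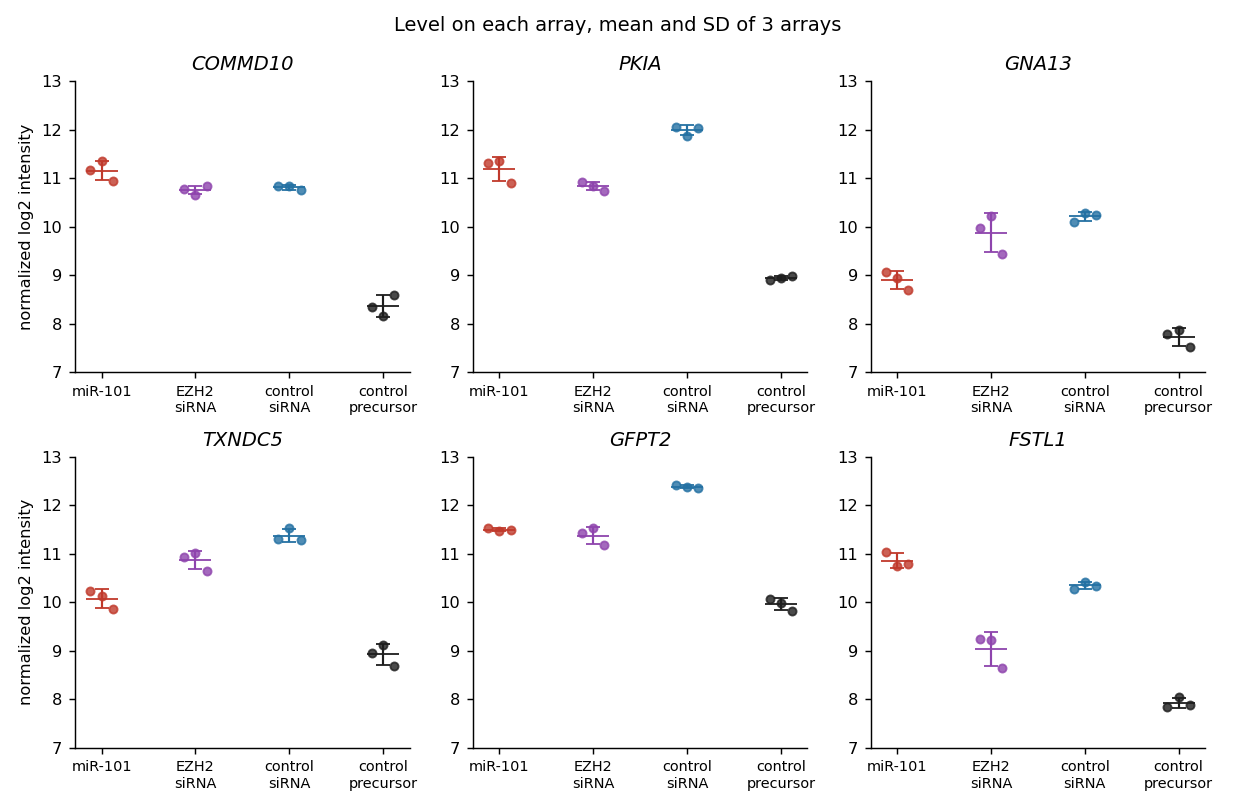
Normalized log2 intensity of the 6 genes on each of the 12 arrays, with the mean (bar) and SD (whiskers) of the 3 arrays of a group. In every panel the 3 control precursor arrays lie below the other 9, while the order of the other groups differs between genes.

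The median control siRNA level over control precursor of the 6 genes was a log2 difference of 2.45 (range 2.42 to 3.04), and the median over all genes was -0.0035. One chip held the miR-101 and control precursor arrays and another held the siRNA arrays, so chip and control cannot be told apart in that difference. For the same reason chip cannot be told apart from group in miR-101 against control siRNA or in EZH2 siRNA against control precursor. The median miR-101 level over control precursor, also among the values that chose the genes, was 1.90, and the median over all genes was -0.00076. On each chip the treated arrays held positions D to F and the control arrays A to C, and these positions cannot be told apart from treatment.

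GNA13 separated the groups into 3 levels. Its probe, ILMN_4382, read 9.06, 8.93 and 8.69 on the miR-101 arrays, 9.96, 10.22 and 9.44 on the EZH2 siRNA arrays, 10.10, 10.29 and 10.25 on the control siRNA arrays and 7.79, 7.86 and 7.52 on the control precursor arrays. The miR-101 arrays stood above the control precursor and below both siRNA groups, with no overlap on either side, while the siRNA groups overlapped. Control siRNA over control precursor was a log2 difference of 2.49, or 5.61-fold. With miR-101 the change was 1.17 against the control precursor and -1.32 against the control siRNA, so the same 3 arrays read 2.25-fold higher against the first control and at 40.1% of the second.

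TXNDC5 followed GNA13 closely, with a correlation of 0.993 over the 12 arrays. The genes were chosen by differences between these same arrays, which favours high correlations between them. This value and those between other members below are a description. Probe ILMN_24968 read 10.23, 10.13 and 9.86 with miR-101, 10.93, 11.02 and 10.65 with EZH2 siRNA, 11.31, 11.52 and 11.28 with control siRNA and 8.96, 9.12 and 8.69 with control precursor. All 4 groups were free of overlap, in the order control precursor, miR-101, EZH2 siRNA, control siRNA. Control siRNA over control precursor was 2.45 (5.46-fold). With miR-101 the change was 1.15 against the control precursor and -1.30 against the control siRNA.

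PKIA had the largest difference of the 6 genes between the controls, 3.04 or 8.24-fold. Probe ILMN_4343 read 11.32, 11.35 and 10.90 with miR-101, 10.91, 10.84 and 10.74 with EZH2 siRNA, 12.05, 11.86 and 12.03 with control siRNA and 8.90, 8.94 and 8.98 with control precursor. The treated groups overlapped each other and lay between the controls. With miR-101 the change was 2.25 against the control precursor and -0.79 against the control siRNA, which is 4.77-fold the level of the first control and 57.8% of that of the second.

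GFPT2 had the same order of groups as PKIA, and their correlation over the 12 arrays was 0.983. Probe ILMN_7613 read 11.52, 11.47 and 11.50 with miR-101, 11.42, 11.52 and 11.17 with EZH2 siRNA, 12.42, 12.38 and 12.35 with control siRNA and 10.07, 9.99 and 9.82 with control precursor. Again the treated groups overlapped and the control groups stood at the ends. The controls differed by 2.42, and with miR-101 the change was 1.54 against the control precursor and -0.89 against the control siRNA.

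COMMD10 differed from the others in that its 3 upper groups were close together. Probe ILMN_12276 read 11.16, 11.35 and 10.95 with miR-101, 10.77, 10.66 and 10.83 with EZH2 siRNA, 10.84, 10.83 and 10.76 with control siRNA and 8.35, 8.16 and 8.60 with control precursor. The siRNA groups overlapped, and the miR-101 arrays lay just above the control siRNA arrays. The controls differed by 2.44, and with miR-101 the change was 2.78 against the control precursor (6.89-fold) and 0.34 against the control siRNA (1.27-fold).

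FSTL1 was highest with miR-101 and was the gene with the widest spread among the upper groups. Probe ILMN_15510 read 11.04, 10.75 and 10.79 with miR-101, 9.24, 9.23 and 8.64 with EZH2 siRNA, 10.27, 10.42 and 10.34 with control siRNA and 7.84, 8.05 and 7.88 with control precursor. No groups overlapped. The controls differed by 2.42, and with miR-101 the change was 2.93 against the control precursor (7.65-fold) and 0.51 against the control siRNA (1.43-fold).

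The change of a treatment against one control is its change against the other plus the difference between the controls, so each treated group takes a pair of readings that lie 2.42 to 3.04 apart. For miR-101, GNA13, TXNDC5, PKIA and GFPT2 read higher against the control precursor and lower against the control siRNA, and COMMD10 and FSTL1 read higher against both. For EZH2 siRNA, all 6 read higher against the control precursor, from 1.11 for FSTL1 and 1.41 for GFPT2 to 1.89 for PKIA, 1.94 for TXNDC5, 2.15 for GNA13 and 2.39 for COMMD10, while all 6 estimates against the control siRNA were below 0. Genes called higher made up 23.6% of all genes for miR-101 against control precursor, 22.9% against control siRNA (43.1% called in either direction), and 15.1% for EZH2 siRNA against control precursor. Genes called lower made up 20.2% for miR-101 against control siRNA. The control precursor arrays that entered the choice of genes are also the reference for EZH2 siRNA here. Its 6 higher readings therefore follow largely from that choice and are a description, not set against the share over all genes. The comparisons share arrays and are not independent readings, and each treatment against the other control also compares across chips.

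**Figure D2:**
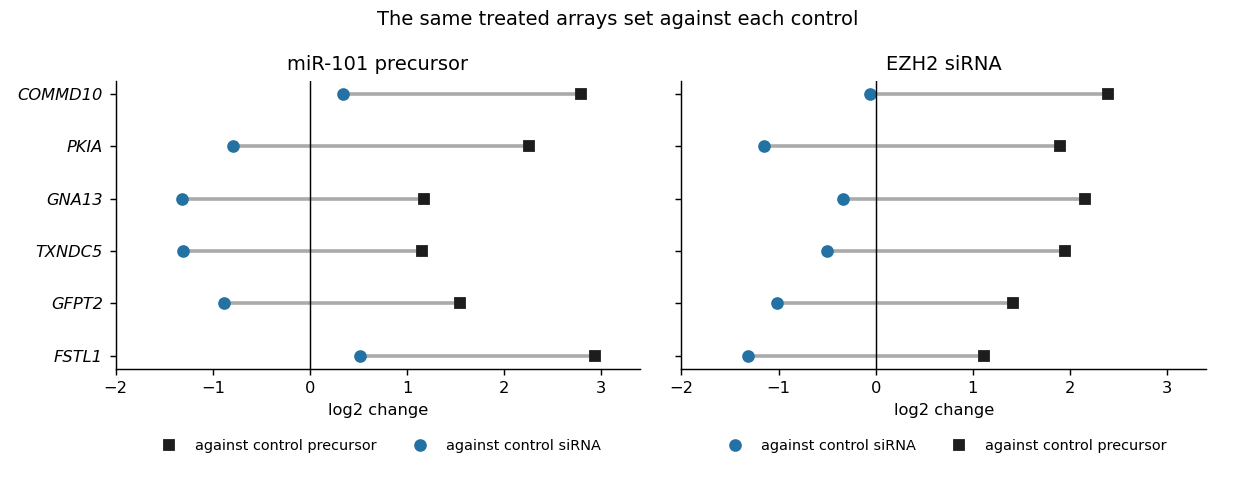
Log2 change of the 6 genes with miR-101 (left) and EZH2 siRNA (right), each against the control precursor (black squares) and the control siRNA (blue circles), with a grey line joining the readings of 1 gene. With miR-101 the joining line crosses 0 for PKIA, GNA13, TXNDC5 and GFPT2, and with EZH2 siRNA every joining line does.

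EZH2 siRNA was set against control siRNA to ask which of the 6 genes changed when EZH2, a Polycomb enzyme that methylates histone H3, was targeted. EZH2 itself fell by 1.22 on the log2 scale (adjusted p 0.000432, limma). PKIA, GFPT2 and FSTL1 fell, which is 3 of 6 genes where 4.64% of all genes tested were called lower, and 0 of 6 rose where 5.85% of all genes were called higher. All 6 estimates were below 0. The choice favoured genes that read high on these same control siRNA arrays, which favours lower estimates here. The counts and p-values of the 6 genes carry that limit, and the shares over all genes are not read as enrichment. PKIA averaged 10.83 ± 0.0842 with EZH2 siRNA and 11.98 ± 0.103 with control siRNA (SD, n = 3 each), a change of -1.15 (SE 0.110, limma adjusted p 0.000287), or 45.0% of the control level. GFPT2 averaged 11.37 ± 0.180 with EZH2 siRNA and 12.38 ± 0.0345 with control siRNA, a change of -1.01 (SE 0.0860, limma adjusted p 0.000174). FSTL1 averaged 9.03 ± 0.344 with EZH2 siRNA and 10.35 ± 0.0765 with control siRNA, a change of -1.31 (SE 0.152, limma adjusted p 0.000813), or 40.3% of the control level. In each of these 3 genes all EZH2 siRNA arrays lay below all control siRNA arrays. Genes that were not called, such as PRKAR1A and GNAI3, were separated in the same way, so the separation is not read as further support.

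The other 3 genes did not pass the threshold. TXNDC5 averaged 10.87 ± 0.192 with EZH2 siRNA and 11.37 ± 0.132 with control siRNA, and its change of -0.51 (95% interval -0.82 to -0.19) had an adjusted p of 0.0525 in limma although its arrays did not overlap. For GNA13 the difference was -0.34 (interval -0.75 to 0.08, limma adjusted p 0.308), and without EZH2 siRNA replicate 3, which read 9.44, it was -0.12. For COMMD10 the difference was -0.06 (interval -0.33 to 0.21, limma adjusted p 0.850). The median change of the 6 genes was -0.76, against 0.0031 over all genes, with the same limit from the choice of genes. EZH2 siRNA replicate 3 was the lowest array of its group for PKIA, GNA13, TXNDC5, GFPT2 and FSTL1, and its mean raw signal of 366.5 was below the 497.1 and 469.1 of replicates 1 and 2. PKIA, GFPT2 and FSTL1 were past the threshold with that array left out, and with each other array left out in turn.

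**Figure D3:**
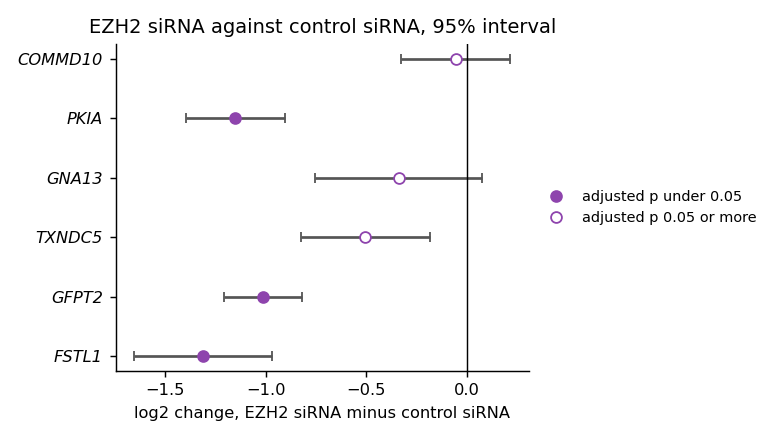
Log2 change of the 6 genes in EZH2 siRNA against control siRNA (3 arrays each), with 95% intervals from the limma fit, filled where the adjusted p over all genes was under 0.05. PKIA, GFPT2 and FSTL1 are filled, and the intervals of GNA13 and COMMD10 include 0.

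Other genes of the same pathways were counted in 6 lists, each without its member above. Because the 6 genes were chosen for a large difference between the controls and the list genes were not, the sizes of the members and of their lists are not compared. Over all genes 28.3% were called in control siRNA against control precursor, 44.9% in miR-101 against control precursor and 10.5% in EZH2 siRNA against control siRNA, and the counts below are read against these shares.

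**Figure D4:**
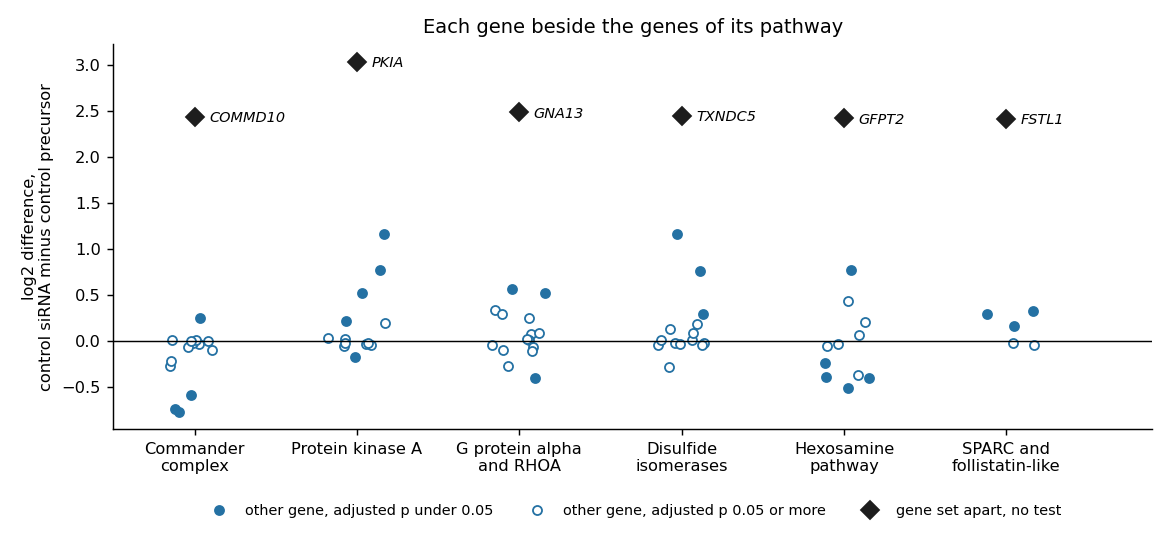
Log2 difference of control siRNA minus control precursor for each tested gene of 6 pathway lists (circles, filled where the adjusted p over all genes was under 0.05) and for the gene set apart in each list (black diamonds, no test). The circles lie on both sides of 0 in every list. The diamonds are high because the genes were chosen by this value, so their distance from the circles is no result.

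Of 14 tested genes of the Commander complex other than COMMD10, 1 was higher and 3 were lower in control siRNA than in control precursor (28.6% called), with a median of -0.05. The 3 were COMMD2 (-0.77), COMMD9 (-0.75) and COMMD7 (-0.59), subunits of the same family as COMMD10. With miR-101 against control precursor 4 rose and 1 fell, among them COMMD3 (0.75) and VPS26C (0.58), a subunit of the retriever part of the complex, and DENND10 (-0.43). With EZH2 siRNA against control siRNA 1 rose, COMMD7 (0.40, limma adjusted p 0.00457), which was not past the threshold with median scaling (adjusted p 0.0847).

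Of 13 tested genes of protein kinase A other than PKIA, 4 were higher and 1 was lower in control siRNA than in control precursor (38.5%), with a median of 0.03. PRKAR1A, a regulatory subunit that holds the kinase inactive, was higher by 1.16 (SE 0.170, limma adjusted p 0.000912). The kinase anchors AKAP11 (0.77) and AKAP12 (0.52) were also higher, but second probes of these genes gave -0.04 and 0.05, and without control siRNA replicate 3 the adjusted p of AKAP11 was 0.0556. With miR-101 against control precursor 5 rose and 5 fell (76.9%), with PRKAR1A at 0.90, AKAP11 at 0.74 (second probe -0.01, and adjusted p 0.0607 with median scaling) and AKAP13 at 0.50 (second probe 0.33). With EZH2 siRNA 1 gene fell, AKAP12 (-0.50, second probe -0.19).

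Of 15 tested G protein alpha subunits and RHOA pathway genes other than GNA13, 2 were higher and 1 was lower in control siRNA than in control precursor (20.0%), with a median of 0.02. They were the alpha subunits GNAI2 (0.56), GNAQ (0.52) and GNA11 (-0.41). With miR-101 against control precursor 1 rose and 3 fell (26.7%). GNAI3 (-0.82) and RHOA (-0.36), the small GTPase downstream of G13, were among those lower, and GNAI2 (0.33) was the one higher. RHOA gave -0.55 with median scaling. Its adjusted p was 0.0540 when control precursor replicate 1 was left out, and the GNAI2 call was lost without miR-101 replicate 2 or 3 or control precursor replicate 2 or 3 (0.0611 to 0.0785). With EZH2 siRNA GNA11 rose (0.65, limma adjusted p 0.00119).

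Of 14 tested disulfide isomerases and oxidases other than TXNDC5, 3 passed the test in control siRNA against control precursor (21.4%), and these were higher, with a median of 0.01 over the list. They were the isomerases PDIA5 (1.16) and PDIA4 (0.76) and the endoplasmic reticulum reductase DNAJC10 (0.29, or 0.49 in the deposited matrix). With miR-101 against control precursor 2 rose and 3 fell (35.7%), among them PDIA5 (0.42), TXNDC12 (-0.72) and the oxidase ERO1A (-0.68). With EZH2 siRNA 2 fell, the membrane-bound thioredoxin-related genes TMX1 (-0.79) and TMX3 (-0.41). TMX3 was not past the threshold without EZH2 siRNA replicate 1 or 3 or control siRNA replicate 2 or 3 (adjusted p 0.0595 to 0.0829).

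Of 11 tested genes of the hexosamine pathway and O-GlcNAc cycling other than GFPT2, 1 was higher and 4 were lower in control siRNA than in control precursor (45.5%), with a median of -0.05. PGM3, the mutase of the pathway, was higher (0.78), and the glucosamine-6-phosphate deaminases GNPDA1 (-0.51) and GNPDA2 (-0.41) were lower. GNPDA2 was -0.24 with median scaling. The GNPDA2 call was lost without control siRNA replicate 2 or 3 or control precursor replicate 2 or 3 (adjusted p 0.0508 to 0.0651) and with median scaling (0.344). With miR-101 against control precursor 4 rose and 3 fell (63.6%), among them UAP1, which makes the final UDP sugar (-1.18, SE 0.0770, limma adjusted p 2.26e-06), the acetyltransferase GNPNAT1 (-0.78) and GNPDA2 (0.74). With EZH2 siRNA 1 fell (9.09%), UAP1 (-0.64).

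Only 5 of the 12 other SPARC and follistatin-like genes passed the filter on dim probes, and 3 of them were higher in control siRNA than in control precursor, with a median of 0.16. They were the matrix protein SPARC (0.32), FSTL3 (0.29), which binds activin, and the calcium-binding SMOC1 (0.16). With miR-101 against control precursor 3 rose, SPARC (0.31), SMOC1 (0.16) and SPOCK2 (0.06). With EZH2 siRNA 2 fell, FSTL3 (-0.43, limma adjusted p 0.00160) and SMOC1 (-0.16). SPARC, SMOC1 and SPOCK2 were not past the threshold in at least 1 of these comparisons with median scaling (adjusted p 0.0864 to 0.442). In the deposited matrix the changes of SMOC1 were 0.41 with miR-101, -0.44 with EZH2 siRNA and 0.42 between the controls, and that of SPOCK2 was 0.22. Leaving out 1 array also ended calls: for SPARC any control precursor replicate, miR-101 replicate 2 or 3, or control siRNA replicate 2 (0.0506 to 0.114), for SMOC1 any control precursor, EZH2 siRNA or control siRNA replicate or miR-101 replicate 1 (0.0527 to 0.135), and for SPOCK2 miR-101 replicate 1 or control precursor replicate 1 (0.0560 to 0.0684).

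The genes most like each member were taken by Pearson correlation of log2 intensity over the 12 arrays. The points fall into 4 groups of 3 arrays of like treatment, so these values describe likeness and carry no p. For COMMD10 they were UBLCP1 (0.992), a proteasome phosphatase, the retinol dehydrogenase RDH11 (0.987) and FHL2 (0.985), a LIM-domain cofactor. For GNA13 they included TXNDC5 and the tight junction scaffold TJP1 (0.987), and for TXNDC5 they were GNA13, TJP1 (0.986, or 0.987 with GNA13) and EEIG2 (0.985). PKIA was most like GFPT2, ZFYVE21 (0.974) and the autophagosome gene MAP1LC3B (0.970). GFPT2 was most like PKIA, ZFYVE21 (0.963) and CSNK2A1 (0.953), the catalytic subunit of casein kinase 2. For FSTL1 they were GPR180 (0.987), the growth factor PDGFC (0.981) and SWAP70 (0.980).

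The control difference was 1.68 for UBLCP1 and 2.21 for RDH11, against 2.44 for COMMD10, and 1.55 for TJP1, against 2.49 for GNA13. It was 1.58 for GPR180, 1.12 for PDGFC, 1.07 for SWAP70, 1.06 for FHL2 and 1.04 for MAP1LC3B. For ZFYVE21 it was 0.84, and for CSNK2A1 and EEIG2 0.79 each, so a similar pattern did not mean a difference of similar size. Among the members themselves the correlation was lowest for GNA13 with FSTL1 (0.561) and for TXNDC5 with FSTL1 (0.592), the genes at opposite ends of the miR-101 readings. GPR180, PDGFC and SWAP70 had FSTL1's order of groups, with means of 9.95, 9.69 and 10.43 with miR-101, 8.92, 8.87 and 9.45 with EZH2 siRNA, 9.68, 9.39 and 10.12 with control siRNA and 8.11, 8.27 and 9.05 with control precursor.

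The smallest gap between the control precursor mean and the 3 other group means ranks how far a gene was set apart from all of them at once. In all 70 genes had such a gap of at least 1 with the control precursor lower and 17 with it higher. COMMD10 ranked 1 (2.39), PKIA 8 (1.89), GFPT2 23 (1.41), GNA13 42 (1.17), TXNDC5 50 (1.15) and FSTL1 54 (1.11), so the genes chosen are not the 6 most extreme by this measure. The 5 named genes with the widest gap below were COMMD10, the membrane-cytoskeleton linker RDX (2.29), RDH11 (2.21), the proton pump accessory subunit ATP6AP1 (2.17) and PJA2 (2.12), a ubiquitin ligase known to act on regulatory subunits of protein kinase A. RDX averaged 10.43 ± 0.189 with miR-101, 10.36 ± 0.0390 with EZH2 siRNA, 10.31 ± 0.134 with control siRNA and 8.02 ± 0.138 with control precursor (SD, n = 3). PJA2 averaged 11.46 ± 0.107 with miR-101, 11.41 ± 0.242 with EZH2 siRNA, 11.50 ± 0.0983 with control siRNA and 9.29 ± 0.103 with control precursor.

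In the opposite direction the 5 named genes with the widest gap above were ANKRD1 (2.02), a nuclear ankyrin-repeat protein, the small nucleolar RNA SNORD46 (1.75), the chemokine CCL20 (1.65), UNKL (1.64) and NFKBIA (1.64), the inhibitor of NF-kB. ANKRD1 averaged 7.26 ± 0.158 with miR-101, 6.94 ± 0.0116 with EZH2 siRNA, 7.10 ± 0.0520 with control siRNA and 9.28 ± 0.306 with control precursor (SD, n = 3). CCL20 averaged 6.91 ± 0.0773 with miR-101, 6.84 ± 0.0200 with EZH2 siRNA, 6.88 ± 0.0141 with control siRNA and 8.57 ± 0.452 with control precursor. The undetected second TXNDC5 probe read 6.74 to 6.80, so the lower CCL20 levels and ANKRD1 with EZH2 siRNA lie near the floor. Gaps measured from there may be compressed. NFKBIA averaged 11.71 ± 0.0563 with miR-101, 11.33 ± 0.0974 with EZH2 siRNA, 10.97 ± 0.108 with control siRNA and 13.35 ± 0.0795 with control precursor.

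Each array detected 15453 to 16377 of its 46713 probes. The mean raw signal was 304.0 to 497.1, and the correlation of log2 signal between arrays of a group was 0.992 to 0.997. The number of arrays limits the precision. Of 7 epithelial markers 3 were detected on all 12 arrays (KRT8, KRT18 and CLDN1) and 2 on none (KRT19 and EPCAM), with KRT7 on 5 and CDH1 on 2. Of 8 urothelial markers 3 were detected on all 12 (UPK1B, UPK3B and PPARG) and 4 on none (UPK2, UPK3A, KRT20 and GATA3), with UPK1A on 1. UPK1B and UPK3B each averaged only 6.89 on the log2 scale, near the undetected UPK3A at 6.79, while PPARG averaged 9.24. Of 6 mesenchymal markers 4 were detected on all 12 (VIM, CDH2, ZEB1 and TWIST1) and FN1 on none, with SNAI2 on 6. TWIST1 was also dim, with a mean of 7.06. No leukocyte, endothelial or erythroid marker of the 4 in each list was detected on all 12, and 3, 2 and 2 of them were detected on none. The others were PTPRC on 5 arrays, PECAM1 on 8, KDR on 1, HBA1 on 7 and ALAS2 on 1. These were dim too, with means from 6.81 for KDR to 6.85 for PECAM1 and HBA1, near the undetected UPK3A.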

How the data were processed

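Messenger RNA of 12 samples of transfected UM-UC-3 cells was measured on Illumina bead arrays. The raw table deposited by the authors gives an average bead signal in intensity units, with no background subtracted, and a detection p-value per probe and array, per the file headers. BeadStudio was used, per the submitters' processing notes,, with no version stated there. The intensity matrix deposited by the authors has the same sorted values on all arrays, as quantile normalization leaves them, and served as an alternative.

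The neqc function of limma 3.58.1 (R 4.3.3) corrected the background, quantile-normalized the signals and gave log2 values (offset 16). The filter kept 17844 probes with a detection p under 0.05 on 3 or more arrays. The brightest probe stood for a gene, which left 13528 genes, named by RefSeq accession or symbol (GRCh38.p14, names only). With lmFit and eBayes, 1 model of the 4 groups took in all 12 arrays (8 residual and 1.36 prior degrees of freedom), for 5 comparisons. The p-values are two-sided and were adjusted over all genes by the Benjamini-Hochberg method, with a threshold of 0.05. The members and the 6 pathway lists were chosen with earlier results of these data known.

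Named pathway genes are up to 3 per list and comparison, for each treatment against its own control and for the difference between the controls, with the largest change among those past the threshold. The 3 most similar genes per member and 5 genes each way by the gap of the control precursor were also named, leaving out unnamed transcripts, and 1 gene similar to GNA13 and 1 marker are not reported here. Other genes named are cell type markers and EZH2. On simulated data with 13528 genes, the EZH2 siRNA comparison recovered 95.0% of genes raised by 1 and 72.5% of genes raised by 0.5 on the log2 scale. Alternatives covered normalization, background, probe filters, offset, probe summary, array weights, a replicate block, single-chip fits and each array left out.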

Additional observations from a re-analysis of the deposited data

How the results depend on the processing

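Across 22 alternatives the changes of PKIA, GFPT2 and FSTL1 in EZH2 siRNA against control siRNA stayed negative and past the threshold, at -1.21 to -1.08 for PKIA, -1.09 to -0.91 for GFPT2 and -1.41 to -1.09 for FSTL1, with adjusted p up to 0.00306, 0.00654 and 0.0149. GNA13 and COMMD10 were past it in 0 of 22 (adjusted p 0.114 to 0.707 and 0.606 to 0.989). TXNDC5 was past it in 7 of 22 (adjusted p 0.00441 to 0.188), among them the deposited matrix (0.0113), array weights (0.0160) and probes detected on all 12 arrays (0.0397). It was also past it without miR-101 replicate 3 (0.0402) or control precursor replicate 3 (0.0363). In the other comparisons 0 of the members' changes turned sign under these alternatives. With the other control in place of a treatment's own, miR-101 changes reversed to -0.79 for PKIA, -1.32 for GNA13, -1.30 for TXNDC5 and -0.89 for GFPT2. EZH2 siRNA changes reversed to 1.89 for PKIA, 1.41 for GFPT2 and 1.11 for FSTL1. The estimates of GNA13, TXNDC5 and COMMD10, not called against control siRNA in the main fit, also turned, to 2.15, 1.94 and 2.39. These reversals follow from the control difference. The count of genes changed with EZH2 siRNA was 1419, against 753 with median scaling and 2689 with array weights, and 791 to 1627 with 1 array left out. Leaving out EZH2 siRNA replicate 1 gave 918, and among the control siRNA arrays leaving out replicate 2 gave 894 and replicate 3 gave 791. The cause was not tested. With median scaling 44.2% of these calls were higher, against 55.7%, and 59.8% against 49.7% for control siRNA against control precursor. Of 60 list counts under the deposited matrix and median scaling, 14 moved by over 1.5 times. The labels number arrays 1 to 3 in each group, but only 8 of 18 same-numbered pairs correlated above 0.1 after removing group means (-0.406 to 0.547), and 7 of 12 arrays correlated best with their own number, so the numbers were not taken as pairs. With a replicate block 1436 genes changed with EZH2 siRNA and 6044 with miR-101, against 1419 and 6071, and TXNDC5 had an adjusted p of 0.00441.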
